A study of Canis lupus familiaris with 8 samples.

Results

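The miRNAs cfa-miR-99a, cfa-miR-99b, cfa-miR-125a and cfa-miR-125b (written below without the dog prefix cfa) were followed across small RNA libraries of vesicles shed by dog mammary cells. They were taken by name from a table of normalised signal and are 4 of its 452 mature miRNAs. They occupy 6 of its 511 loci, and where copies exist, the copy with the highest mean signal was used. The libraries came from 5 canine mammary tumour (CMT) lines, labelled as mammary carcinoma cells (CMT-119, CMT-47, CMT-28, CMT-27 and CMT-12), and from 3 samples of normal canine mammary cells (CMEC1, CMEC2 and CMEC3). All cells were grown without serum and received no treatment per the labels. Medium from the first 24 hours was thrown away, and RNA was taken from the cell-free medium of the next 48 hours, collected on day 3, with a kit for exosomal RNA. Each tumour line is represented by 1 library. The labels call the normal samples biological replicates without naming the donors, so p-values speak only of the spread among the samples at hand.

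The miR-99 and miR-125 families are encoded side by side, with a let-7 miRNA between them, in clusters that arose by duplication and are conserved among vertebrates. miR-99 miRNAs are known from human cells to repress MTOR and the IGF1 receptor, both drivers of growth. miR-125 miRNAs are the vertebrate relatives of the worm developmental timer lin-4 and are known from human breast cancer cells to repress the receptors ERBB2 and ERBB3. The let-7 miRNAs between them restrain growth and are held back by LIN28.

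In canFam3, the build of the table, the 6 loci fell into 3 clusters. On chromosome 1, minus strand, miR-125a lay at chr1:105400311-105400332, let-7e at chr1:105400785-105400806 and miR-99b at chr1:105400963-105400984, within 674 bases. On chromosome 31, plus strand, a copy of miR-99a lay at chr31:13258782-13258802 and let-7c at chr31:13259522-13259543. A copy of miR-125b followed at chr31:13304980-13305001. The other copies were on chromosome 5, plus strand, with miR-99a at chr5:12047369-12047389, let-7a at chr5:12052802-12052823 and miR-125b at chr5:12097672-12097693. RefSeq gene names matched all 6 loci by gene ID. In RefSeq's UU_Cfam_GSD_1.0 assembly, MIR99A-1 and MIR125B-2 lie within 1 shared long noncoding gene (LOC102154980). There MIR99A-2 lies within the span of the protein-coding gene BLID, MIR99B within the noncoding LOC111099011, and MIR125A within no listed gene. MIR99A-1 also lies within the noncoding LOC111093426, and MIR125B-1 within the noncoding LOC106558788 and LOC111090004. Exons, introns and the strand of the spanning genes were not analysed here.

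The copies of miR-99a could not be told apart by their signal. The chromosome 31 locus held between 99.6% (CMT-28) and 100% (CMT-12) of the signal at the chromosome 5 locus, so the 2 loci gave almost the same value. For miR-125b the chromosome 31 locus held less. It had 81.5% of the chromosome 5 signal in CMT-119, 75.2% in CMT-47, 75.6% in CMT-28, 74.0% in CMT-27 and 80.1% in CMT-12. In the normal samples it had 85.3% in CMEC1, 62.8% in CMEC2 and 67.7% in CMEC3. CMEC1 thus had the highest value of the 8 libraries and the other normal samples the lowest. The chromosome 5 total exceeded that of chromosome 31 by 5337 reads in CMT-27 and by 80 reads in CMEC2. How reads were shared among copies or close family members is not given in the sources used here. Values of both miRNAs below are those listed at the chromosome 5 locus, and which copy they came from is uncertain. In human the cluster with let-7a carries miR-100, a near-identical relative of miR-99a. No miRNA named miR-100 was listed for these libraries, so it was not analysed here. Whether the values of miR-99a include reads of such a relative was not tested.

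**Figure D1:**
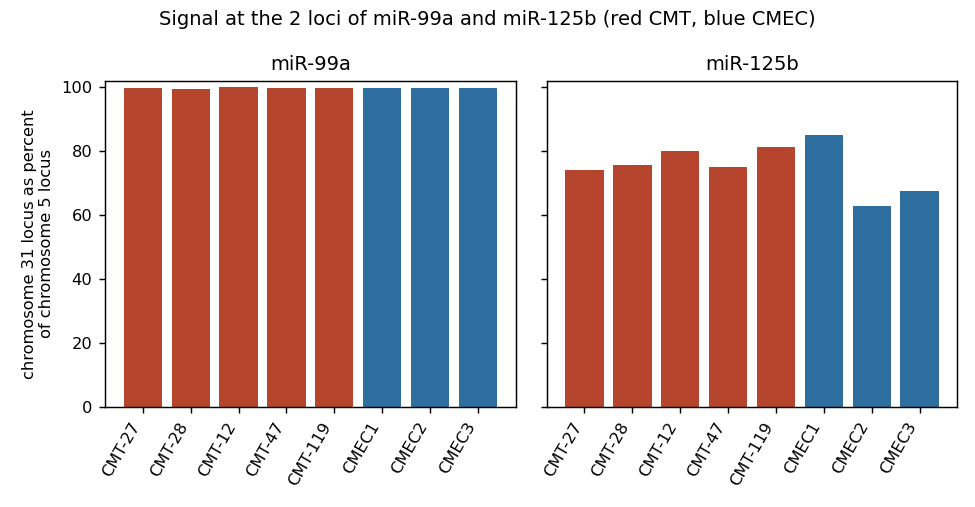
Signal at the chromosome 31 locus as a percent of that at the chromosome 5 locus (y axis, from 0) for miR-99a and miR-125b in each library (1 bar per library, red CMT, blue CMEC). miR-99a stands at 99.6% or more in every library, whereas miR-125b runs from 62.8% in CMEC2 to 85.3% in CMEC1.

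All 4 miRNAs were above the table's floor of 1 in all 8 libraries. Recovered reads, the values divided by the worth of 1 read, totalled 81138 in CMT-12 and 85906 in CMEC2, and between 346585 and 1405893 in the others. The fewest reads behind a member were 49, for miR-125a in CMEC2. The widest 95% Wilson interval of a share was ± 0.141 percentage points (miR-99a), which covers counting error only. The series text names the normal cells epithelial, and the listed epithelial markers were uneven. miR-183 and miR-182 were above the floor in 8 of 8 libraries, miR-200c, miR-203 and miR-96 in 7, miR-205 in 6 and miR-200a in 3. miR-200b and miR-429 were above it in CMT-27 and CMT-12 only, and miR-141 was at the floor in all 8. The 10 epithelial markers together held 3.44% of the summed value in CMT-27 and 5.36% in CMT-12. They held 0.722% to 1.09% in the other CMT lines, 0.875% in CMEC1, 0.0563% in CMEC2 and 0.0214% in CMEC3. Outside CMT-27, miR-182 and miR-183 made up most of that sum. They held 0.797% and 0.245% in CMT-28, and 0.479% and 0.381% in CMEC1. miR-200c held 1.43% in CMT-27 and 1.07% in CMT-12, but at most 0.0105% (CMEC2) elsewhere. Among markers of other cell types, the liver miRNA miR-122 held 9.74% in CMT-12 and at most 0.277% elsewhere, and the 6 blood markers together held at most 0.117%. The muscle markers (miR-1, miR-133a and miR-206) together held 1.49% in CMEC2 and 0.230% in CMEC3, against 0.0435% in CMEC1 and 0.00834% to 0.0731% in CMT. Of these, miR-206 was at 2570 in CMEC2 and 298 in CMEC3 and at the floor in the other 6 libraries. miR-126, of endothelium, held at most 0.00272% in any library.

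miR-99a was the most abundant member in each library and took a smaller share of the signal in tumour vesicles. Its share of the summed value of all miRNAs was 3.06% in CMT-119, 1.87% in CMT-47, 1.38% in CMT-28, 2.31% in CMT-27 and 4.10% in CMT-12. In the normal samples it was 4.66% in CMEC1, 4.67% in CMEC2 and 6.74% in CMEC3. The groups did not overlap, which held for 2.59% of the 193 tested miRNAs in this direction and for 2.07% in the opposite one. By rank, miR-99a was the fourth miRNA (rank 4) in each CMEC sample, and stood between rank 6 (CMT-12) and rank 9 (CMT-28) in the tumour lines.

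The mean share of miR-99a was 2.54% ± 1.07 over the CMT lines (SD, n = 5) and 5.36% ± 1.20 over the normal samples (SD, n = 3), which is 2.11-fold higher in CMEC. The two-sided exact permutation test over all 56 arrangements of the group labels gave p = 0.0179, the smallest it can give, and 0.689 after adjustment over all 193 miRNAs. An unadjusted p under 0.05 was reached by 5.18% of the 193 shares. No adjusted p under 0.05 was reached by any share (0.0% of 193), for which at least 69 miRNAs would need the smallest p. The difference of -2.81 percentage points ran from -3.20 without CMT-12 to -2.12 without CMEC3. Its exact permutation p was 0.0286 without CMT-12, 0.0571 without any other CMT line and 0.0952 without CMEC3. The smallest reachable p is then 0.0286 without a CMT line and 0.0476 without a CMEC sample. In RNA from a whole vesicle sample, a lower share can reflect fewer copies per vesicle, fewer vesicles that carry the miRNA, or more of other miRNAs, and these cannot be told apart.

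miR-125b, which is encoded with miR-99a on chromosomes 5 and 31, did not separate the groups as its partner did. Its share was 0.685% in CMT-119, 0.343% in CMT-47, 0.801% in CMT-28, 1.46% in CMT-27 and 2.84% in CMT-12. The normal samples had 1.08% in CMEC1, 0.250% in CMEC2 and 0.498% in CMEC3. The groups overlapped, with CMT-12 highest and CMEC2 lowest. The means were 1.23% ± 0.989 over the CMT lines (SD, n = 5) and 0.611% ± 0.429 over the normal samples (SD, n = 3; exact permutation p = 0.411). The difference of 0.62 percentage points was 0.21 without CMT-12.

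The chromosome 1 pair was scarcer. miR-99b, which shares its seed family with miR-99a, held 0.324% in CMT-119, 0.213% in CMT-47, 0.277% in CMT-28, 0.964% in CMT-27 and 1.21% in CMT-12. It held 0.295% in CMEC1, 0.435% in CMEC2 and 0.570% in CMEC3, so that the normal samples lay inside the range of the tumour lines. Its means were 0.597% ± 0.457 over the CMT lines (SD, n = 5) and 0.433% ± 0.137 over the normal samples (SD, n = 3; exact permutation p = 0.607). The difference of 0.16 percentage points was 0.011 without CMT-12.

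miR-125a was the least abundant member in each library. Its share was 0.0429% in CMT-119, 0.0146% in CMT-47, 0.133% in CMT-28, 0.308% in CMT-27 and 0.224% in CMT-12. The normal samples had 0.0430% in CMEC1, 0.0570% in CMEC2 and 0.126% in CMEC3. CMT-27 and CMT-12 were above all normal samples beyond counting error, and CMT-47 was below them. By the Wilson intervals CMT-28 was not separated from CMEC3, nor CMT-119 from CMEC1 or CMEC2. The group means were 0.145% ± 0.123 over the CMT lines (SD, n = 5) and 0.0752% ± 0.0443 over the normal samples (SD, n = 3; exact permutation p = 0.411). The difference of 0.069 percentage points was 0.028 without CMT-27.

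miR-21, the most abundant miRNA, took 24.9% to 63.1% of the summed value and so weighs on all shares. With miR-21 left out of the sum, the difference between groups was -3.81 percentage points for miR-99a (exact permutation p = 0.0357) and 1.11 for miR-125b. It was 0.40 for miR-99b and 0.161 for miR-125a, and none of the 4 passed after adjustment.

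**Figure D2:**
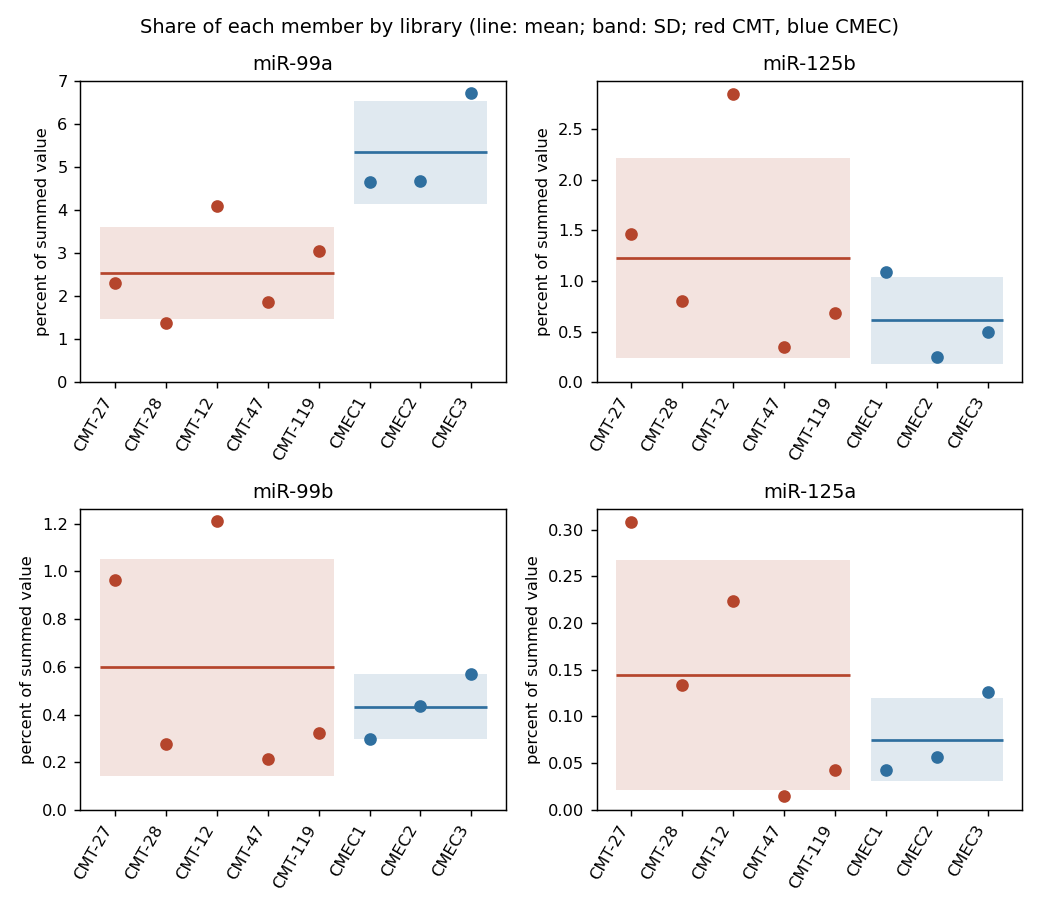
Share of each member in the summed value of all miRNAs (y axis, percent; each panel has its own scale starting at 0) by library, with the group mean as a line and ± 1 SD as a band (red CMT, n = 5; blue CMEC, n = 3). For miR-99a all CMEC samples (4.66% to 6.74%) lie above all CMT lines (1.38% to 4.10%), and for the other members the groups overlap.

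The members also differed in how much they varied. Over the 8 libraries the SD of the log2 share was 0.77 for miR-99a, 0.90 for miR-99b, 1.14 for miR-125b and 1.45 for miR-125a. The median over the 105 miRNAs above the floor in every library was 1.34. miR-99a thus had the tenth lowest SD (rank 10 of 105), with a 4.88-fold range, whereas miR-125a had a 21.03-fold range.

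The pairs were then compared as units. miR-99a and miR-125b together held 3.77% ± 1.94 of the summed value over the CMT lines (SD, n = 5) and 5.97% ± 1.18 over the normal samples (SD, n = 3). miR-99b and miR-125a together held 0.742% ± 0.565 over the CMT lines (SD, n = 5) and 0.509% ± 0.179 over the normal samples (SD, n = 3). The ranges overlapped for both pairs: 2.18% to 6.94% against 4.92% to 7.24% for the first, and 0.227% to 1.43% against 0.338% to 0.696% for the second.

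Within the sum of the 4 members, the composition differed among the tumour lines. miR-99a made up 53.3% of that sum in CMT-28, 49.0% in CMT-12 and 45.8% in CMT-27, but 76.6% in CMT-47 and 74.4% in CMT-119. The normal samples had 76.6% in CMEC1, 86.3% in CMEC2 and 85.0% in CMEC3. miR-125b made up 33.9% in CMT-12, 30.9% in CMT-28 and 29.0% in CMT-27, against 14.1% in CMT-47 and 16.7% in CMT-119. It made up 17.8% in CMEC1, 4.62% in CMEC2 and 6.28% in CMEC3. CMT-47, CMT-119 and CMEC1 therefore had similar proportions of these 2 miRNAs, and CMEC2 and CMEC3 the least miR-125b.

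**Figure D3:**
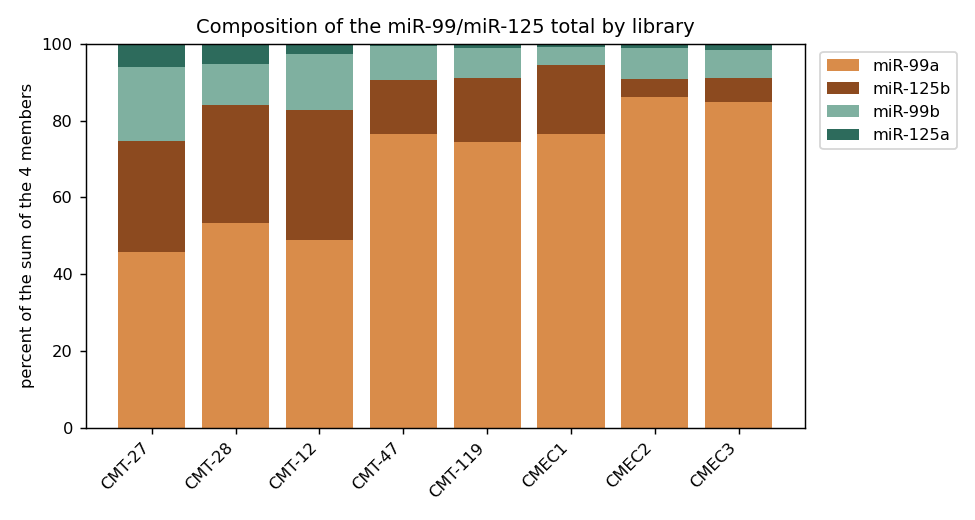
Composition of the summed signal of the 4 members (y axis, percent, 0 to 100) in each library as stacked bars. miR-99a fills 45.8% to 53.3% in CMT-27, CMT-28 and CMT-12 and 74.4% to 86.3% in the other libraries.

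Ratios inside a library do not depend on the scaling of that library, and 9 of them were tested with two-sided exact permutation and Benjamini-Hochberg adjustment over the 9. None passed: the lowest adjusted p was 0.193, and at least 4 ratios would need the smallest p for any to pass. One of the 9, miR-99a to miR-99b, had an unadjusted p under 0.05.

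The log2 ratio of miR-99a to its seed relative miR-99b was 3.24 in CMT-119, 3.13 in CMT-47, 2.32 in CMT-28, 1.26 in CMT-27 and 1.76 in CMT-12. It was 3.98 in CMEC1, 3.43 in CMEC2 and 3.56 in CMEC3. Each normal sample was above each tumour line, with a gap of less than the spread within either group. The means were 2.34 ± 0.86 over the CMT lines (SD, n = 5) and 3.66 ± 0.29 over the normal samples (SD, n = 3), which correspond to 5.07-fold and 12.6-fold more miR-99a than miR-99b. The difference of -1.31 had an exact permutation p of 0.0357 (0.193 adjusted) and ran from -1.54 without CMT-119 to -1.04 without CMT-27. With a library left out, the exact permutation p ran from 0.0571 to 0.143, where the design can reach 0.0286 without a CMT line and 0.0476 without a CMEC sample.

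The log2 ratio of miR-99a to its cluster partner miR-125b was 2.16 in CMT-119, 2.45 in CMT-47, 0.79 in CMT-28, 0.66 in CMT-27 and 0.53 in CMT-12. It was 2.10 in CMEC1, 4.22 in CMEC2 and 3.76 in CMEC3. CMEC1 fell just below CMT-119 and CMT-47, and CMEC2 and CMEC3 were above all other libraries. The means were 1.32 ± 0.91 over the CMT lines (SD, n = 5) and 3.36 ± 1.12 over the normal samples (SD, n = 3; exact permutation p = 0.0714, 0.193 adjusted). These are 2.49-fold and 10.3-fold more miR-99a than miR-125b. The difference of -2.05 was -2.68 without CMEC1 and -1.61 without CMEC2.

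The summed markers of mesenchyme and smooth muscle were lowest in CMT-27 and CMT-12, which had the lowest ratios, and highest in CMEC2, which had the highest. Between these ends the orders differed. CMT-28 held more of the markers than CMEC1 at a lower ratio (0.79 against 2.10), and CMT-47 more than CMEC3 at a lower ratio (2.45 against 3.76). The 4 markers (miR-143, miR-145, miR-199 and miR-214) held together 6.001% of the summed value in CMT-119, 13.9% in CMT-47, 4.39% in CMT-28, 0.0152% in CMT-27 and 0.255% in CMT-12. They held 1.68% in CMEC1, 18.5% in CMEC2 and 13.03% in CMEC3. Between 3 and 4 of the 4 were above the floor in each library, and miR-214 was at the floor in CMT-27, CMT-47, CMT-119 and CMEC1. miR-143 made up most of the sum, with 13.9% in CMT-47 and 17.8% in CMEC2. The single markers did not all share that order: miR-199 had its lowest share in CMT-119 (0.000925%) and miR-145 its highest in CMT-28 (0.0550%). The muscle markers were also highest in CMEC2 and CMEC3, as given above. The part of either list in the ratio or in the share of miR-99a was not tested.

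The other ratios between members overlapped between groups. The log2 ratio of miR-99b to miR-125a, the chromosome 1 partners, was 2.92 in CMT-119, 3.86 in CMT-47, 1.05 in CMT-28, 1.65 in CMT-27 and 2.43 in CMT-12. It was 2.78 in CMEC1, 2.93 in CMEC2 and 2.18 in CMEC3, all inside the range of the tumour lines. The difference was -0.25 (exact permutation p = 0.732, 5 against 3 libraries) and 0.08 without CMT-28. The log2 ratio of miR-125b to miR-125a, the seed relatives, ran from 2.25 in CMT-27 to 4.55 in CMT-47. Among the normal samples it was 4.66 in CMEC1, above every tumour line, and 2.13 in CMEC2 and 1.99 in CMEC3, below every tumour line. Its difference of 0.48 (exact permutation p = 0.607, 5 against 3 libraries) was 1.35 without CMEC1 and 0.01 without CMEC3.

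For the pairs as units, the log2 ratio of miR-99a plus miR-125b to miR-99b plus miR-125a was 1.57 to 3.35 in CMT and 3.32 to 4.09 in CMEC. The groups overlapped by CMT-119 alone, whose 3.35 exceeded the 3.32 of CMEC2. The means were 2.58 ± 0.75 over the CMT lines (SD, n = 5) and 3.60 ± 0.42 over the normal samples (SD, n = 3; exact permutation p = 0.0536, 0.193 adjusted). In shares, the chromosome 1 pair made up 15.3% ± 6.68 of the 4 members over the CMT lines (SD, n = 5) and 7.81% ± 1.95 over the normal samples (SD, n = 3).

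**Figure D4:**
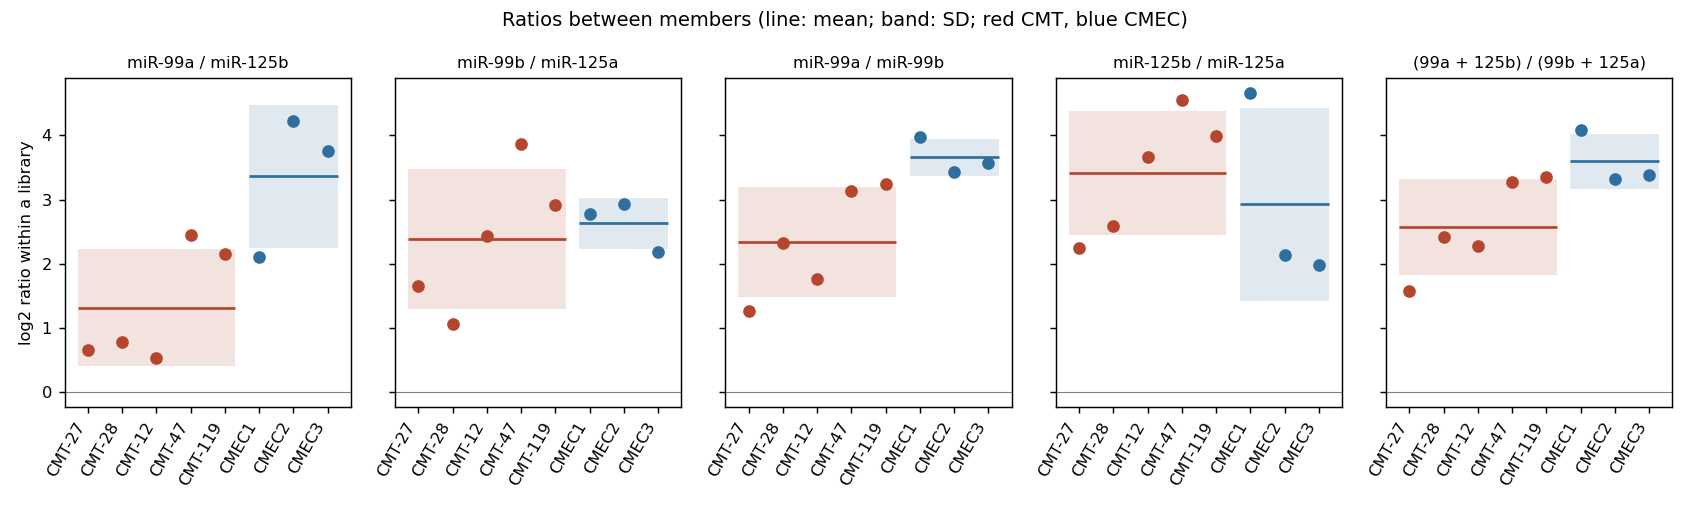
Log2 ratios between members within each library (y axis), with group means as lines and ± 1 SD as bands (red CMT, n = 5; blue CMEC, n = 3). In the panel of miR-99a to miR-99b the CMEC samples (3.43 to 3.98) lie above the CMT lines (1.26 to 3.24), and in the other panels the groups overlap.

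The let-7 miRNAs of the same clusters gave a further comparison. let-7c, between miR-99a and miR-125b on chromosome 31, held 0.549% in CMT-119, 0.243% in CMT-47, 0.0574% in CMT-28, 0.115% in CMT-27 and 0.0505% in CMT-12. It held 0.425% in CMEC1, 0.475% in CMEC2 and 0.842% in CMEC3, and CMT-119 lay among the normal samples. Its mean was 2.86-fold higher in CMEC (exact permutation p = 0.0714, 5 against 3 libraries). let-7e on chromosome 1 held 0.0155% to 0.168% in CMT and 0.0415% to 0.152% in CMEC. let-7a, which has a further copy on chromosome 10, held 1.38% to 3.95% in CMT and 2.50% to 3.68% in CMEC. let-7a had the lowest SD of the log2 share (0.49) of the 105 miRNAs.

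Relative to let-7c, miR-125b spanned a wide range. Its log2 ratio to let-7c was 0.32 in CMT-119, 0.49 in CMT-47, 3.80 in CMT-28, 3.67 in CMT-27 and 5.81 in CMT-12. It was 1.35 in CMEC1, -0.93 in CMEC2 and -0.76 in CMEC3. CMEC2 and CMEC3 were thus the only libraries with less miR-125b than let-7c, and CMT-12 had 56.3-fold more, on 41 reads of let-7c. The difference of 2.93 between group means (CMT 2.82 ± 2.36, SD, n = 5; CMEC -0.11 ± 1.27, SD, n = 3) had an exact permutation p of 0.107 (0.193 adjusted). miR-99a exceeded let-7c in every library, by 2.48 (CMT-119) to 6.35 (CMT-12) on the log2 scale in CMT and by 3.00 to 3.45 in CMEC. Since miR-99a and miR-125b have a copy on chromosome 5 and let-7c does not, these ratios also move with that copy.

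On chromosome 1, miR-99b exceeded let-7e in every library, by 1.13 (CMT-28) to 4.81 (CMT-12) on the log2 scale in CMT and by 1.90 to 2.83 in CMEC (difference 0.89; exact permutation p = 0.375, 5 against 3 libraries). That difference was 0.48 without CMT-12 and 1.40 without CMT-28. miR-125a was nearer to let-7e. Its log2 ratio was 0.67 in CMT-119, -0.08 in CMT-47, 0.08 in CMT-28, 0.87 in CMT-27 and 2.38 in CMT-12. The normal samples had 0.05 in CMEC1, -0.84 in CMEC2 and -0.28 in CMEC3. CMT-12 stood highest, on 35 reads of let-7e, and the difference of 1.14 (exact permutation p = 0.0893, 0.193 adjusted) was 0.74 without it.

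**Figure D5:**
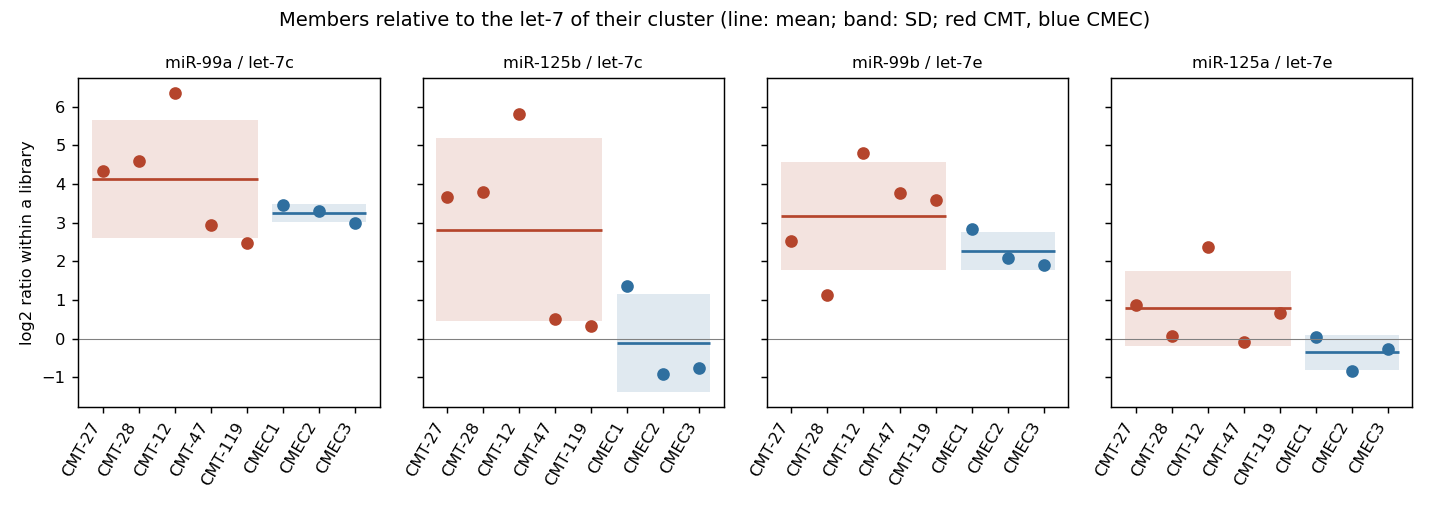
Log2 ratio of each member to the let-7 miRNA of its cluster within each library (y axis), with group means as lines and ± 1 SD as bands (red CMT, n = 5; blue CMEC, n = 3). miR-125b to let-7c runs from -0.93 in CMEC2 to 5.81 in CMT-12, and miR-99a stays above let-7c in every library.

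Likeness of pattern was measured as the SD, over the 8 libraries, of the log2 ratio of a miRNA to the member, among the 104 other miRNAs above the floor in all libraries. For miR-125a the nearest of all was its cluster partner miR-99b (SD 0.86), followed by miR-505 (0.90) and miR-7 (0.93), with let-7e in rank 5 (0.98). For miR-99b the nearest were miR-128 (0.47), miR-25 (0.56) and let-7d (0.60), and miR-125a was in rank 13. For miR-99a they were let-7b (0.69), miR-423a (0.71) and let-7d (0.76), with miR-99b in rank 8 (0.95) and its cluster partner miR-125b in rank 38 (1.397). For miR-125b they were miR-186 (0.38), miR-1301 (0.46) and miR-185 (0.58), with miR-99b in rank 18, miR-125a in rank 30 and miR-99a in rank 52. The median SD over all 104 ran from 1.31 for miR-99b to 1.66 for miR-125a. Some of these near patterns rest on few reads: the lowest share of miR-1301 was 0.00116% (in CMEC) and that of miR-505 was 0.000191% (in CMT). How counting error moves the ranks was not tested. These are descriptions over libraries that share their library preparation.

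As deposited, the values of all 4 members overlapped between groups. miR-99a was at 14793 in CMT-119, 13548 in CMT-47, 4514 in CMT-28, 7733 in CMT-12 and 22442 in CMT-27, and at 20486, 11384 and 32409 in CMEC1, CMEC2 and CMEC3. miR-125b was at 2485 (CMT-47) to 14219 (CMT-27) in CMT and at 609 (CMEC2) to 4773 (CMEC1) in CMEC. miR-99b was at 905 to 9376 in CMT and 1060 to 2741 in CMEC, and miR-125a at 106 to 2995 and 139 to 604. CMT-27 had the highest CMT value of each member. Over all 193 tested miRNAs, values without overlap occurred for 7.77% higher in CMT and 1.55% lower.

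On log2(value + 1), limma put miR-99a at -0.84 ± 0.87 (SE) in CMT against CMEC, with a 95% interval of -2.68 to 0.99 and a Benjamini-Hochberg adjusted p of 0.717. The difference was 1.20 ± 0.96 for miR-125b (interval -0.83 to 3.23, adjusted p = 0.594). It was 0.47 ± 0.95 for miR-99b (interval -1.53 to 2.47) and 0.72 ± 1.14 for miR-125a (interval -1.68 to 3.12). These estimates moved with single libraries: miR-99a was at -0.48 without CMEC3, -0.52 without CMT-28 and -1.24 without CMEC2. miR-125b was at 0.38 without CMEC2, 0.78 without CMT-27 and 1.86 without CMEC1. miR-125a was at 0.0055 without CMT-27, 0.29 without CMEC2, 1.21 without CMT-47 and 1.35 without CMEC3. miR-99b was at -0.058 without CMT-27, 0.19 without CMEC2, 0.78 without CMT-28 and 0.88 without CMEC3. The signs of miR-99b and miR-125a turned with the scaling: after median centring miR-99b was at -0.36 and miR-125a at -0.12. miR-99a stayed below 0 and miR-125b above 0, at -1.68 and 0.37. None of the 4 passed, as none of the 193 did (0.0%), with 6.74% at an unadjusted p under 0.05 and higher in CMT and 4.15% lower.

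The median difference of all 193 miRNAs was 0.75 as deposited. Relative to it, miR-99a was at -1.59, miR-99b at -0.27, miR-125a at -0.03 and miR-125b at 0.46, a median of -0.15 over the 4. Of the cluster neighbours let-7a, let-7c and let-7e, 0 of 3 passed limma's threshold and their median was -1.16 on that relative scale, with let-7c at -2.47.

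miR-10a and miR-10b, of a family related by descent to miR-99, and miR-196a and miR-196b are encoded in Hox clusters, which pattern the body axis. miR-10b was not tested, being above the floor in CMT-47 and CMEC3 only, and 0 of the other 3 passed limma's threshold. The log2 difference was -5.21 ± 1.47 for miR-10a (limma adjusted p = 0.151), -2.31 ± 0.98 for miR-196b and 1.76 ± 1.51 for miR-196a. Next to a share of miR-99a that varied 4.88-fold over the libraries, that of miR-10a ran from 0.000213% in CMT-27, on 3 reads (95% Wilson interval 7.26e-05% to 0.000627%), to 0.869% in CMEC3.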

How the data were processed

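For each library the authors deposited a linear, normalised signal at each mature miRNA locus, never below 1. The submitters' processing notes name canFam3. For aligner, counting and normalisation: not given in the sources used here. Above the floor of 1, at least 99.0% of the values in each library were whole multiples of 1 step (tolerance 0.05 steps), which gave the recovered reads used for depth. Shares were computed over 452 miRNAs, 1 locus each.

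The 193 miRNAs that exceeded the floor in 3 or more libraries were fitted on log2(value + 1) with limma 3.58.1 (eBayes with trend, R 4.3.3), as CMT minus CMEC. The call was a Benjamini-Hochberg adjusted p under 0.05. The pseudocount of 1 shrinks fold changes of low miRNAs. The fit was tested on simulated data, only for changes larger than the differences found for the members. Shares and within-library ratios were tested by exact permutation over 56 arrangements of the group labels, counting absolute differences of means. Of 11 ratios planned, 2 with miR-100 were not analysed here, since no miRNA of that name was listed. The named miRNAs were the members, cluster neighbours, Hox-cluster relatives and the 3 nearest patterns per member. The members and lists were chosen with earlier results of these data known. Alternatives covered the pseudocount, filter, scaling, loci, fitting and leaving out libraries.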

Additional observations from a re-analysis of the deposited data

Results flagged for a closer look

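The values of the 5 CMT lines were examined in 27 sets for a single distant library. There was 1, the share of miR-196a, a Hox-cluster relative, which was 0.161% in CMT-27 and far lower in the other tumour lines. Chance flags about 1 in 20 such sets. None of the 4 members had a distant library, and groups of 3 were not examined.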

How the results depend on the processing

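Of 234 recalculations of 18 results, 224 kept direction and side of the threshold. For shares and ratios the side of the threshold was nearly fixed in advance, so that their count says little about it. At least 69 miRNAs or 4 ratios would need the smallest exact permutation p for any to pass. The log2 difference of miR-99b became -0.36 with median centring, -0.48 with quantile normalisation and -0.18 with sample weights, and ran from -0.058 (without CMT-27) to 0.88 with each library left out. That of miR-125a became -0.12, -0.11 and -0.54 under the same 3 settings. Median centring moved the median difference of all miRNAs from 0.75 to -0.09 and quantile normalisation moved it to 0.13. For the sample weights the cause was not tested. limma called 15 miRNAs with sample weights (8 higher, 7 lower) and 0 to 6 with a library left out, the 6 without CMEC1, against 0 in the fit as reported (21 at an unadjusted p under 0.05). None of the 4 members was among these calls. The ratio of miR-99b to miR-125a ran from -0.62 to 0.084 with each library left out. For the 6 ratios that hold miR-99a or miR-125b, the chromosome 31 loci, an alternative chosen after seeing the data, gave the same directions and no call. The planned limma-voom and edgeR fits on recovered reads were not run, since too few low values were whole multiples of 1 step when the floor was included. No paired analysis was possible because the labels link no tumour line to a normal sample. Depth limits miR-125a most, with 49 reads in CMEC2.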
